A study of Mus musculus with 6 samples.

Results

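The immediate early genes Fos, Fosb, Fosl2, Jun, Junb, Jund, Egr1, Egr2, Egr3 and Ier2 were examined in 6 mouse RNA sequencing libraries, 3 labelled KO and 3 labelled WT. These 10 genes were chosen by symbol, from 21399 gene symbols in each table, and all 10 were listed in every library. According to the series' design text, primary microglia of KO or WT mice on the CD45.2 background went through deprivation of oxygen and glucose, which models ischaemia in a dish, and were then reoxygenated in co-culture with peritoneal macrophages of CD45.1 mice. CD45.1 and CD45.2 are forms of a leukocyte surface protein by which the donors' cells can be separated. The design text calls the sorted cells microglia but gives them the CD45.1 mark of the macrophage donors, and the labels name both cell types as the source of every library. The deleted gene, the strain background beyond CD45, the animals' age and the lengths of deprivation and co-culture are not given in the labels, and the series title names PPARα. No library was left without deprivation and reoxygenation, so every level below is a level after that treatment. Nothing in the labels tells whether libraries of 1 group are separate cultures or animals, so p-values here measure only library-to-library spread, which could be technical.

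Immediate early genes are transcribed soon after a cell receives a signal, without new protein synthesis, and most of them encode transcription factors. Fos and Jun proteins are basic leucine zipper proteins that pair to form AP-1. A Fos protein must pair with a Jun protein, whereas Jun proteins can also pair with each other, and AP-1 binds the motif TGACTCA and its relatives. Egr proteins bind GC-rich DNA through zinc fingers, and their expression is driven largely by serum response factor and its ETS partners at CArG boxes. In macrophages these genes respond to adhesion, cytokines and microbial products, in lymphocytes to antigen receptor signals, and in many cells also to dissociation and sorting.

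Fos and Fosl2 stood higher in every KO library than in any WT library, but neither passed the test. Their 250 bases upstream of the RefSeq start in GRCm38.p6 are shown because these genes separated the groups, with those of Jun, the classical partner of Fos, whose groups overlapped. Capitals mark TGACGT, the core of the cyclic AMP response element, and TGACATCA, a variant of the AP-1 motif. The windows are chr12:85473640-85473889 on the plus strand for Fos, chr5:32136222-32136471 on the plus strand for Fosl2 and chr4:95052223-95052472 on the minus strand for Jun.
Fos: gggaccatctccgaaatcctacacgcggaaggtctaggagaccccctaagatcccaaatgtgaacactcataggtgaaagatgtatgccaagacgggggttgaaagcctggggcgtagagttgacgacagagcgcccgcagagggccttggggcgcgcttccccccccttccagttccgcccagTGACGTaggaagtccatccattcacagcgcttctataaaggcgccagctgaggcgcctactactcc
Fosl2: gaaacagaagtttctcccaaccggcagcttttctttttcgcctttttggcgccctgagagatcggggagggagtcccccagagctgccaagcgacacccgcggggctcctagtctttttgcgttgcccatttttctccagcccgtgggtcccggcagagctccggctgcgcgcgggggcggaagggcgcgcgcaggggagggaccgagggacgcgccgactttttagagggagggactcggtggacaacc
Jun: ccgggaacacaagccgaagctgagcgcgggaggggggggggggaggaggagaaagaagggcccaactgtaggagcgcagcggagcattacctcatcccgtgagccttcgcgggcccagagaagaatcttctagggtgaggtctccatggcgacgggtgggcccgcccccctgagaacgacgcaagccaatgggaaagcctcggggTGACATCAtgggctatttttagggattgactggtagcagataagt

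Both strands were searched for 6 motifs: the AP-1 motif TGACTCA and its variant TGACATCA, the cyclic AMP response element TGACGTCA and its core TGACGT, the TATA box as TATAAA, and the CArG box. Each full cyclic AMP response element also holds its core. The Fos window holds TGACGT from -66 to -61 and TATAAA from -33 to -28, counted from the start. The Jun window holds TGACATCA from -45 to -38, and the Fosl2 window holds none of the 6 motifs. In the GENCODE M21 annotation Fosl2 begins at 32135801, so its window lies inside the gene, while those of Fos and Jun lie directly before theirs. The Fosl2 window is thus not a like counterpart of the other windows shown. Among the 32841 windows of this length in the table, TGACGT occurs in 6.47%, TGACATCA in 2.93% and TATAAA in 12.4%. The table has an entry for 7 of the 10 genes, in 11 windows, and 0 of these windows hold TGACTCA or TGACGTCA, which occur in 4.46% and 1.55% of all windows. Egr2 has a CArG box in 4 of its 5 windows, which overlap in part, against 1.47% of all windows. Its windows starting at 67537619, 67537620 and 67537680 share the same CArG site, so they are not separate counts. These matches describe letters in the windows and not binding, and bases further upstream were not searched.

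The libraries differed in their levels of cell type marker RNA. Reads recovered from the FPKM values (fragments scaled to transcript length and sequencing depth) summed to between 34543159 and 38093111 per library. Markers of peritoneal macrophages summed over 20 genes to 10892 to 23965 FPKM in KO libraries and to 2827 to 8857 FPKM in WT libraries. Saa3 and Lyz2 made up most of each sum. The groups of Saa3 overlapped, with 4271 FPKM in WT replicate 2 and 4090.3 FPKM in KO replicate 3. Of the 20 markers, 17 had all KO libraries above all WT libraries, as had 9.75% of all tested genes, and 0 had them below. Over 12 B cell markers the sums were 4615 to 5057 FPKM in KO libraries and 5269 to 5973 FPKM in WT libraries. Over 11 T and NK cell markers they were 355 to 398 FPKM in KO libraries and 390 to 484 FPKM in WT libraries. Microglia markers summed over 10 genes to 14.4 to 23.02 FPKM in KO libraries and 7.90 to 12.9 FPKM in WT libraries. Trem2, the most abundant of these, averaged 11.2 ± 4.90 FPKM in KO and 5.22 ± 1.70 FPKM in WT (SD, n = 3 each). This gene alone made up a large part of each sum, from 8.79 of 18.6 FPKM in KO replicate 3 to 16.8 of 23.02 FPKM in KO replicate 1. Of the 10, 5 stayed below 1 FPKM in all libraries. All KO libraries were above all WT libraries for 3 of the 10, and for 9.75% of all tested genes. The defining microglia genes were low: P2ry12 lay between 0.268 and 1.09 FPKM and Sall1 between 0 and 0.152 FPKM in all 6 libraries. Tmem119, another of them, averaged 2.27 ± 0.148 FPKM in KO and 0.567 ± 0.427 FPKM in WT (SD, n = 3 each). Ppara, which encodes PPARα, had 13, 23 and 10 reads in KO libraries and 11, 1 and 2 reads in WT libraries, so its gene-level value does not check the labels. The core macrophage level, the mean log2(FPKM + 1) of 10 general macrophage genes such as Lyz2 and Csf1r, was 7.50, 6.91 and 6.69 in KO replicates 1 to 3 and 5.39, 6.18 and 4.86 in WT replicates 1 to 3. In bulk RNA, fewer cells of a type and less RNA per cell cannot be told apart.

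Of the 10 genes, 9 reached the mean of 1 FPKM required for testing, and Fosb did not. Limma on log2(FPKM + 1), with Benjamini-Hochberg adjustment over 10732 genes, called 0 of the 9 higher and 0 lower in KO libraries. Over all genes it called 0.0280% higher and 0% lower. At an unadjusted limma p under 0.05, 2 of the 9 were higher, where 8.86% of all genes were, and 1 was lower, where 8.21% of all genes were. The groups did not overlap for the same 3 genes, Fos and Fosl2 higher and Egr3 lower in KO libraries, while 9.75% of all tested genes had all KO libraries above all WT libraries and 15.2% had them below. Limma's voom on the recovered reads also called 0 of the 9.

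Fos, whose protein is the founding partner in AP-1, stood at 63.6, 52.7 and 40.7 FPKM in KO replicates 1 to 3, against 16.4, 30.6 and 16.04 FPKM in WT replicates 1 to 3. The groups did not overlap, and WT replicate 2 was nearer to the lowest KO library than to the other WT libraries. The means were 52.3 ± 11.4 FPKM in KO and 21.03 ± 8.33 FPKM in WT (SD, n = 3 each), a ratio of 2.49. On log2(FPKM + 1) the difference was 1.31 with a standard error of 0.26, rank 162 from the top among the 10732 genes, and the adjusted limma p was 0.11. Between 1177 and 5144 reads lay behind each value, so counting error was at most 2.91%, far below the spread between libraries of 21.9% in KO and 39.6% in WT.

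Fosl2, which encodes Fra-2, a Fos protein without the strong activation domain of Fos, stood at 18.5, 24.4 and 24.9 FPKM in KO libraries, against 11.8, 13.9 and 8.52 FPKM in WT libraries. Again every KO library was above every WT library, but KO replicate 1, which had the most Fos, had the least Fosl2 of its group. The means were 22.6 ± 3.55 FPKM in KO and 11.4 ± 2.73 FPKM in WT (SD, n = 3 each), a ratio of 1.98. The difference was 0.94 on log2(FPKM + 1) with a standard error of 0.18 and an adjusted limma p of 0.11.

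Fosb, a close relative of Fos with a truncated splice form known from neurons, was the lowest of the 10 genes at 0.732, 0.382 and 0.492 FPKM in KO libraries, against 0.503, 0.687 and 1.23 FPKM in WT libraries. The groups overlapped, and WT replicate 3 was the highest. The read numbers were 106, 54 and 66 in KO libraries and 69, 96 and 161 in WT libraries, and the 95% exact Poisson intervals of the lowest and highest ran from 40.6 to 70.5 and from 137 to 188 reads. These intervals cover counting error only. An exact two-sided permutation test on FPKM gave p = 0.40 (with 3 against 3 the smallest possible p is 0.1). Fosl1 and Egr4, the remaining genes of these families and named after their values were seen, were also low, with 5 to 34 reads and 0 to 4 reads per library.

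**Figure D1:**
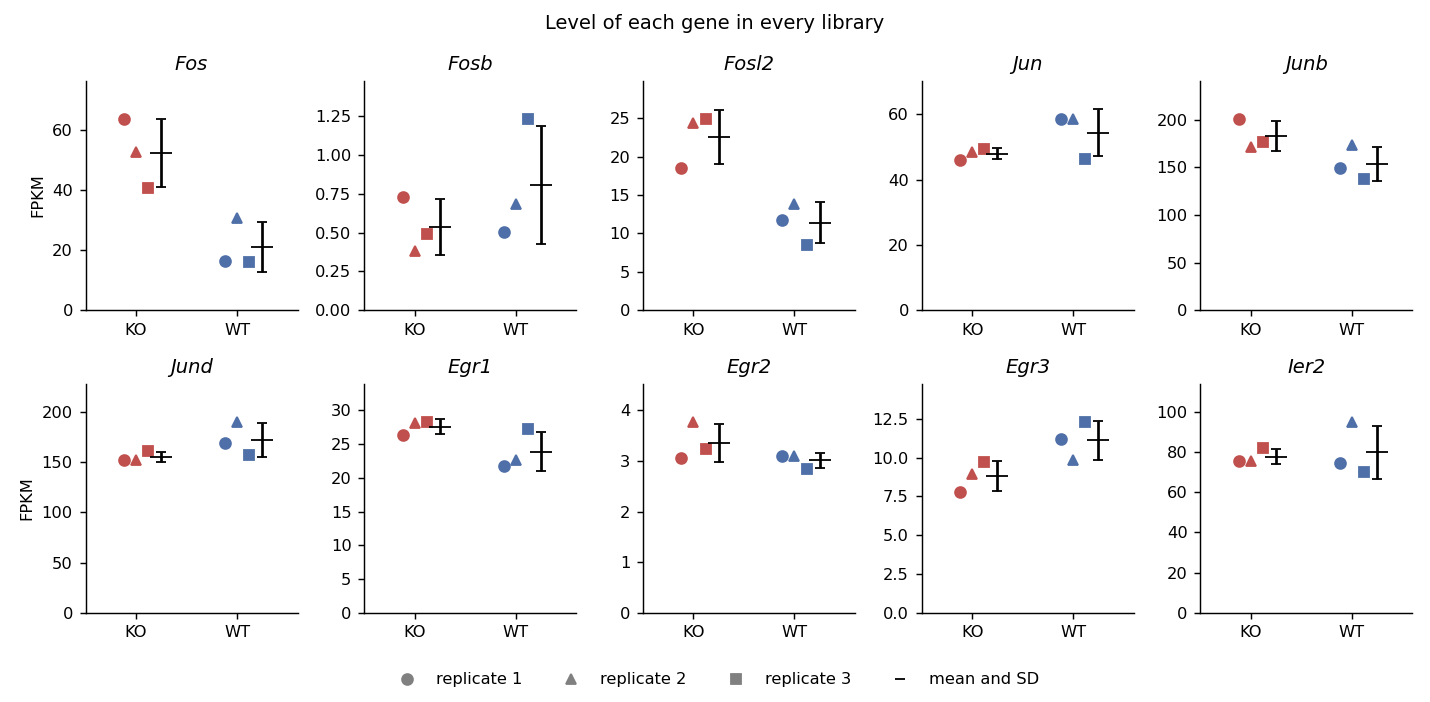
FPKM of the 10 genes in each library, with KO left of WT in every panel, each axis starting at 0, symbols for the replicate numbers, and the mean with its SD beside the points. Fos and Fosl2 have all KO libraries above all WT libraries, Egr3 has them below, and the other 7 genes overlap.

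The call for Fos and Fosl2 depended on WT replicate 2. Without it, limma gave Fos a difference of 1.61 (adjusted p = 0.0097) and Fosl2 a difference of 1.08 (adjusted p = 0.020), and both were called higher, in a fit that called 4.66% of all genes higher and 0.354% lower. Leaving out any other library left both uncalled, with Fos differences of 1.16 to 1.48. With array weights, which give libraries that stand apart less influence, both were also called higher by limma (adjusted p = 0.010 for Fos and adjusted p = 0.0095 for Fosl2), in a fit that called 5.07% of all genes higher and 0.634% lower.

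Fos levels ran in the same order over the 6 libraries as the core macrophage level, from WT replicate 3 at the bottom through WT replicates 1 and 2 and KO replicates 3 and 2 to KO replicate 1 at the top. The main principal component, the axis along which the libraries differed most over all tested genes, held 63.4% of the variance. It put the libraries in this order too, from -30.6 to 29.0. The order is therefore not particular to Fos or to the genes given below with it. How many of all tested genes follow it was not counted. The order for Fosl2 was the same among the WT libraries and the reverse among the KO libraries. With the core macrophage level as a covariate in limma, the Fos difference was 0.20 with a standard error of 0.22 (adjusted p = 0.68) and the Fosl2 difference 0.64 with a standard error of 0.35 (adjusted p = 0.44). That covariate itself differed by 1.56 between the group means, so the model separates it from the group only in part. By the distance between log2(FPKM + 1) profiles centred per gene, over 5583 genes averaging 10 FPKM or more, the gene nearest to Fos was Clec4a1, a C-type lectin receptor of myeloid cells, at a root mean square distance of 0.07. It stood at 19.00, 14.7 and 12.6 FPKM in KO libraries and at 4.47, 9.82 and 4.15 FPKM in WT libraries. Lilrb4b, Cxcl16, Lilrb4a and Cmtm3 followed at distances of 0.11 to 0.14, and Lilrb4a and Lilrb4b are near-identical copies whose reads may be shared.

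**Figure D2:**
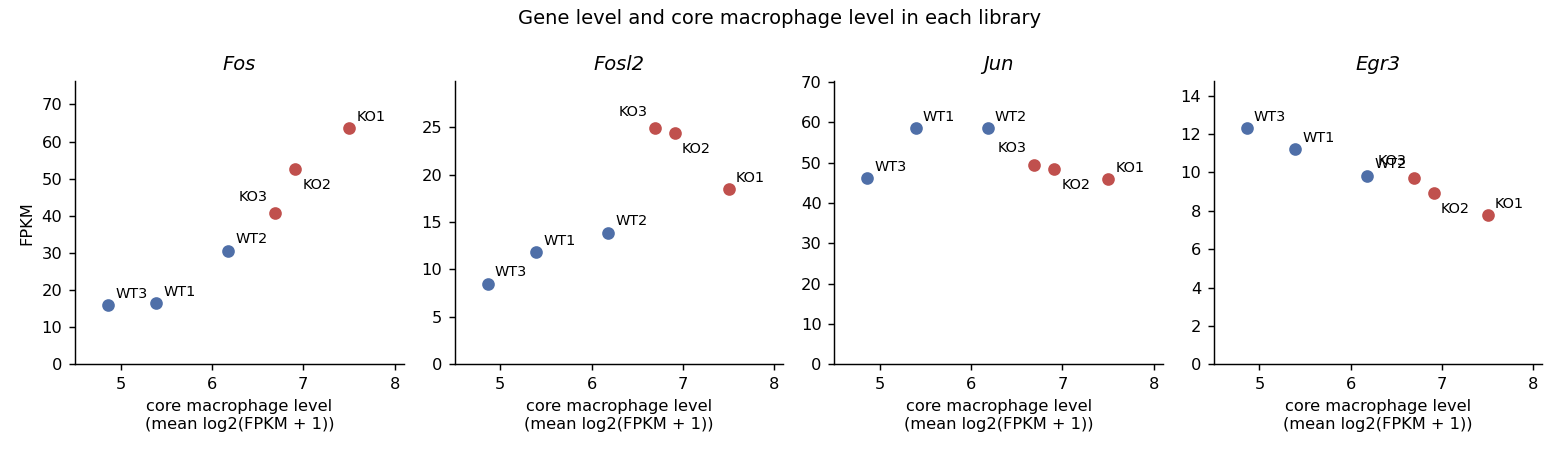
FPKM of Fos, Fosl2, Jun and Egr3 against the core macrophage level, the mean log2(FPKM + 1) of 10 macrophage genes, with 1 labelled point per library, KO in red and WT in blue. Fos runs in the same order as the macrophage level, between 16.04 and 63.6 FPKM, and Egr3 in the opposite order, between 7.77 and 12.3 FPKM. The order of the macrophage level is also that of the main component over all tested genes.

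In each of the 3 Jun genes the groups overlapped. By FPKM, Junb, whose protein often restrains Jun, was the most abundant of the 10 genes in every KO library, and Jund in every WT library. In recovered reads, Jund exceeded Junb in every library, with 16785 against 14150 reads in KO replicate 1. This ranking therefore depends on the lengths used for FPKM. Junb stood at 200.4, 171 and 177 FPKM in KO libraries, against 149, 173 and 138 FPKM in WT libraries. Only WT replicate 2 reached into the KO range. The means were 183 ± 15.4 FPKM in KO and 153 ± 17.9 FPKM in WT (SD, n = 3 each), and the difference of 0.26 (log2, standard error 0.11) did not pass, with an adjusted limma p of 0.30. With the macrophage covariate the difference was -0.13. Junb overlaps Prdx2 on the opposite strand, and since the strand setting of the counting is not given in the sources used here, reads of this overlap cannot be told apart; Prdx2 itself averaged 61.6 ± 5.67 FPKM in KO and 59.9 ± 5.56 FPKM in WT.

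Jund, the most constantly expressed Jun gene in many cell types, stood at 152, 152 and 161 FPKM in KO libraries, against 169.6, 190.2 and 157 FPKM in WT libraries. Jun stood at 45.98, 48.4 and 49.5 FPKM in KO libraries, against 58.5, 58.5 and 46.2 FPKM in WT libraries. In both genes the KO libraries lay close together and WT replicate 3 lay among them, while WT replicates 1 and 2 were higher. The difference was -0.15 (log2, standard error 0.10) for Jund and -0.17 (standard error 0.11) for Jun, with an adjusted limma p of 0.47 for each. With the macrophage covariate it was -0.35 (standard error 0.16) for Jund and -0.38 (standard error 0.19) for Jun. Without WT replicate 2 the Jund difference was -0.07, and without WT replicate 3 the Jun difference was -0.28 (adjusted p = 0.30 by limma). The annotation places a noncoding gene on the opposite strand over each of them. In KO replicate 1, 5623 reads gave Jun 45.98 FPKM, and 16785 reads gave Jund 152 FPKM. Both were thus scaled by similar lengths, although the genes span 3189 and 1668 bases. The level of Jund and its part in the Jun family sum may be understated.

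Jun and Jund had the most similar profiles of all pairs among the 9 tested genes, with a root mean square distance of 0.07 on the centred log2 scale, and the distance between Fos and Jun was 0.81. Outside the 10 genes, those nearest to Jun were Ube2d3, Zfand6, Ints5, Nol9 and Itprip, at distances of 0.03 to 0.05. Since Jun varied little, with a root mean square deviation of 0.14 from its own mean, many genes with little variation lie this near.

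Ier2, a nuclear protein gene induced together with these factors, stood at 75.5, 75.4 and 81.9 FPKM in KO libraries, against 74.6, 95.02 and 70.1 FPKM in WT libraries. All 3 KO libraries lay within the WT range. The difference was -0.03 (log2, standard error 0.12, adjusted p = 0.92 by limma), and its sign turned to 0.03 under median-of-ratios scaling, 0.02 with array weights and 0.10 without WT replicate 2. With the macrophage covariate it was -0.36 (standard error 0.19).

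The makeup of the families was then taken from FPKM, which is scaled to length. Adding levels of different genes relies on the lengths used, and the annotation behind these is not given in the sources used here. The Fos, Fosb and Fosl2 values summed to 82.8, 77.5 and 66.04 FPKM in KO libraries, against 28.7, 45.3 and 25.8 FPKM in WT libraries. The Jun, Junb and Jund values summed to 398, 372 and 387 FPKM in KO libraries, against 377, 422 and 341 FPKM in WT libraries, and these ranges overlapped. The Fos sum was thus 20.8%, 20.8% and 17.1% of the Jun sum in KO libraries and 7.62%, 10.7% and 7.56% in WT libraries. The Jun sum exceeded the Fos sum in each library. Between the single genes, the FPKM of Fos was 1.38, 1.09 and 0.823 times that of Jun in KO libraries and 0.280, 0.524 and 0.347 times in WT libraries. Within the Fos family, Fos made up 61.6% to 76.8% of the sum in KO libraries and 57.1% to 67.7% in WT libraries, which overlapped. Within the Jun family, Junb made up 50.3%, 46.1% and 45.8% in KO libraries and 39.5%, 41.03% and 40.5% in WT libraries. The Junb shares did not overlap, although the FPKM values of Junb did. These shares were formed after the levels were seen and were not tested.

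**Figure D3:**
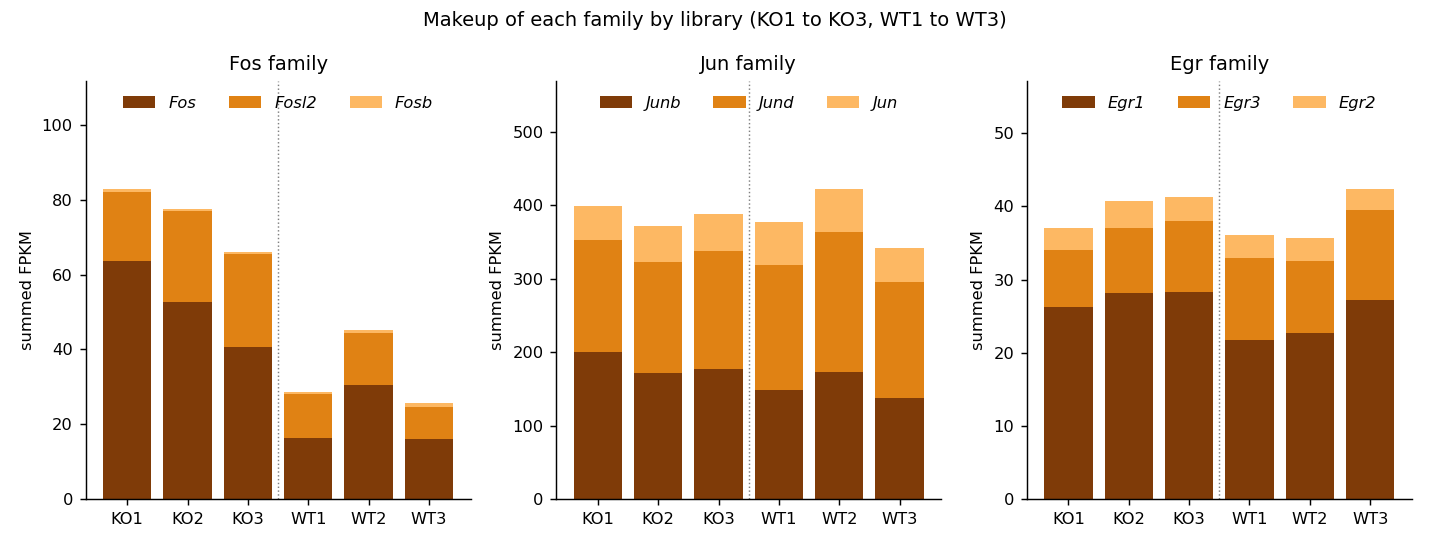
Summed FPKM of the Fos, Jun and Egr families in each library, stacked by gene, with the KO libraries left of the dotted line and the WT libraries right of it. The Fos family sum is 66.04 to 82.8 FPKM in KO libraries and 25.8 to 45.3 FPKM in WT libraries, while the sums of the other families overlap.

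The Egr genes went in different directions, none of them past the test. Egr3, a zinc finger factor induced by antigen receptor signals in lymphocytes, stood at 7.77, 8.93 and 9.73 FPKM in KO libraries, against 11.2, 9.83 and 12.3 FPKM in WT libraries. All KO libraries were below all WT libraries, with KO replicate 3 only slightly below WT replicate 2. The means were 8.81 ± 0.985 FPKM in KO and 11.1 ± 1.25 FPKM in WT (SD, n = 3 each), and the difference of -0.31 (log2, standard error 0.11) did not pass, with an adjusted limma p of 0.25. Egr3 ran over the 6 libraries in exactly the opposite order to the core macrophage level, which is also the reverse order of the main component over all tested genes. With the core macrophage level as a covariate the Egr3 difference was 0.10 (standard error 0.13). All 12 B cell markers and all 10 T and NK cell markers tested had negative differences as well. Of all tested genes, 35.4% had positive differences. All KO libraries were below all WT libraries for 7 of the 12 and 6 of the 10, and for 15.2% of all tested genes. The part of these cell types in the Egr3 values was not tested.

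Egr1, the most abundant Egr gene here and a rapid responder to growth factor and stress signals, stood at 26.3, 28.1 and 28.3 FPKM in KO libraries, against 21.8, 22.7 and 27.2 FPKM in WT libraries. WT replicate 3 lay within the KO range and the other WT libraries below it. The difference was 0.20 (log2, standard error 0.10, adjusted p = 0.36 by limma). With the macrophage covariate it was 0.46 with a standard error of 0.16 (adjusted p = 0.36). The genes nearest to Egr1 in profile were Exoc3, Snx4, Ifnar1, Cdk10 and Ctps2, at distances of 0.05 to 0.07, while Egr1 itself deviated by 0.14 from its mean.

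Egr2, known for its role in myelination and in restraining lymphocyte activation, stood at 3.05, 3.77 and 3.24 FPKM in KO libraries, against 3.10, 3.10 and 2.84 FPKM in WT libraries. The groups overlapped, and the difference was 0.12 (log2, standard error 0.10, adjusted p = 0.58 by limma). Egr1 was 3.38, 3.15 and 2.91 times as abundant as Egr3 in KO libraries and 1.94, 2.31 and 2.21 times in WT libraries. The summed Egr values, 37.1 to 41.3 FPKM in KO libraries and 35.6 to 42.4 FPKM in WT libraries, overlapped. In KO replicate 1, 1064 reads gave Egr2 3.05 FPKM, while 1233 reads gave Egr3 7.77 FPKM. Egr2 was thus scaled by a much longer length, although the genes span 6714 and 5412 bases. Its level and its part in the Egr sum may be understated.

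**Figure D4:**
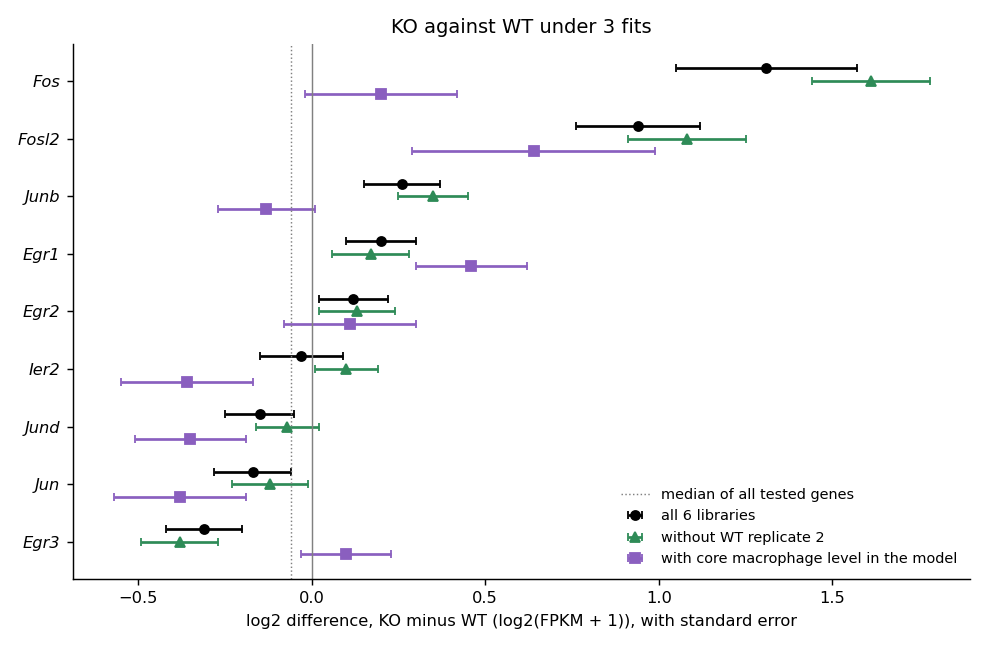
Difference in log2(FPKM + 1), KO minus WT, with its standard error, for the 9 tested genes in the fit of all 6 libraries, without WT replicate 2, and with the core macrophage level in the model, with the median of all tested genes at -0.06 as a dotted line. Fos lies at 1.31, 1.61 and 0.20 under the 3 fits, and Junb, Egr3 and Ier2 change sign between fits.

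Related genes were taken from lists written down by function. Among 13 other basic leucine zipper factors that can join AP-1 or its relatives, 9 were tested and 0 were called either way. Of these 9, 4 were higher and 0 lower at an unadjusted limma p under 0.05. Over all tested genes, 8.86% were higher and 8.21% lower at that threshold. The median difference of the 9 was 0.04 (log2), where that of all tested genes was -0.06. Atf3, a stress-induced partner of Jun, averaged 10.02 ± 3.14 FPKM in KO and 4.62 ± 1.65 FPKM in WT (SD, n = 3 each). Jdp2, a partner of Jun that can repress AP-1 targets, averaged 3.10 ± 0.369 FPKM in KO and 2.22 ± 0.276 FPKM in WT. Mafg and Maf differed by 0.34 and 0.67 (log2), with adjusted limma p-values of 0.13 and 0.14. Over the 6 libraries, Atf3, Mafg and Maf ran in the same order as the core macrophage level and the main component over all tested genes, and Jdp2 did not. Batf, an AP-1 factor of lymphocytes and the most abundant of the 13, averaged 24.6 ± 3.35 FPKM in KO and 23.9 ± 3.83 FPKM in WT, a difference within the spread. Atf7, the next most abundant, differed by -0.09 (log2), also within the spread.

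Of 34 other immediate early genes tested, 7 were higher and 2 lower at an unadjusted limma p under 0.05. Of all tested genes, 8.86% were higher and 8.21% lower at that threshold. Among the 34, 0 were called, and the median difference was -0.03 (log2). Those with the smallest p were Rgs2, a brake on G protein signals, at 38.6 ± 4.24 FPKM in KO and 23.7 ± 1.78 FPKM in WT (adjusted p = 0.079 by limma), and Nfil3, a leucine zipper repressor, at 16.2 ± 1.05 FPKM in KO and 6.70 ± 2.81 FPKM in WT (adjusted p = 0.11 by limma). Ier3 averaged 118 ± 30.95 FPKM in KO and 45.8 ± 25.7 FPKM in WT. It ran in the same order as the core macrophage level, and the other named genes of this list did not. Ptgs2, which encodes the inducible cyclooxygenase, averaged 11.7 ± 3.13 FPKM in KO and 3.98 ± 2.44 FPKM in WT. The most abundant, Klf2 and Btg1, both linked to quiescence in lymphocytes, differed by -0.06 and -0.03 (log2), within the spread between libraries.

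Of 16 feedback inhibitors tested, 3 were higher and 1 lower at an unadjusted limma p under 0.05, against 8.86% and 8.21% of all genes. Among the 16, 0 were called, and the median difference was 0.09 (log2). Dusp6, a phosphatase that switches off ERK, averaged 11.5 ± 1.30 FPKM in KO and 6.54 ± 1.05 FPKM in WT, and Dusp1, a phosphatase of p38 and JNK, averaged 31.01 ± 7.33 FPKM in KO and 16.3 ± 3.08 FPKM in WT (adjusted p = 0.11 for each by limma). Spred1 differed by 0.60 and Dusp2 by -0.35 (log2), with adjusted limma p-values of 0.21 and 0.22. Zfp36 and Zfp36l1, which encode proteins that speed the decay of short-lived mRNAs, differed by 0.14 and -0.21 (log2), with adjusted limma p-values of 0.58 and 0.41.

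Of 33 upstream kinases and factors, 0 were called, with a median difference of -0.00 (log2). At an unadjusted limma p under 0.05, 3 were higher and 1 lower, against 8.86% and 8.21% of all tested genes. Mef2a averaged 15.5 ± 1.09 FPKM in KO and 11.8 ± 1.03 FPKM in WT. Mrtfa, a partner of serum response factor, averaged 29.5 ± 2.90 FPKM in KO and 35.6 ± 1.99 FPKM in WT. Mapkapk2 and Mapk3 differed by 0.38 and 0.33 (log2), and the most abundant, Stat3 and Mef2d, by -0.02 and -0.14. Mapkapk2 also ran in the order of the core macrophage level, and the other genes named here did not.

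Heat shock and dissociation response genes, known to be induced when cells are dissociated and handled, were listed beside the immediate early genes. Of 17 tested, 0 were called, and 0 were higher and 1 lower at an unadjusted limma p under 0.05. The shares over all tested genes were 8.86% higher and 8.21% lower. The median difference of the 17 was -0.06 (log2), equal to that of all tested genes. With the macrophage covariate the median of the 17 was -0.27, and that of all tested genes in the same fit is not given here. Hspa8 averaged 561 ± 33.6 FPKM in KO and 583 ± 38.3 FPKM in WT, and Hsp90ab1 averaged 477 ± 5.37 FPKM in KO and 488 ± 71.7 FPKM in WT (SD, n = 3 each). Hsf1, the heat shock factor, averaged 21.2 ± 1.51 FPKM in KO and 24.9 ± 1.69 FPKM in WT, with an adjusted limma p of 0.28. Hspe1, Hspa5 and Bag3 differed by -0.22, 0.21 and 0.24 (log2), within the spread of overlapping groups.

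**Figure D5:**
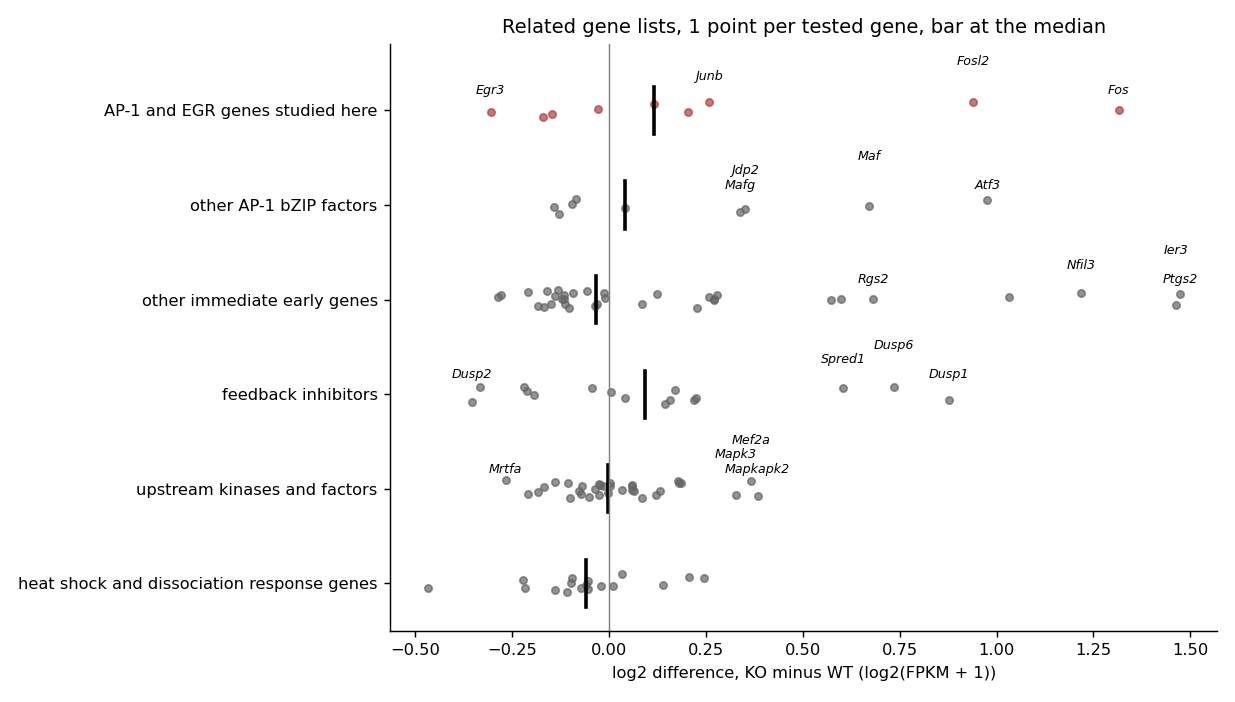
Difference in log2(FPKM + 1), KO minus WT, for each tested gene of the 10 genes studied and of 5 related lists, with a bar at each list's median and names beside those points far from 0 that are studied genes or have the smallest p of their list. Medians of the related lists lie between -0.06 and 0.09, and single genes such as Ptgs2 and Ier3 lie as far to the right as Fos.

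The genes lie on 8 chromosomes in mm10, by GENCODE M21. Fos spans 85473890 to 85477273 on chromosome 12 on the plus strand and Fosl2 spans 32135801 to 32157842 on chromosome 5 on the plus strand, and no other gene overlaps either. Egr3 spans 70077203 to 70082614 on chromosome 14 on the plus strand and overlaps no other gene. Ier2, Junb and Jund lie on chromosome 8, and Jun, Jund and Ier2 have a single annotated exon.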

How the data were processed

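RNA sequencing was done on 3 libraries labelled KO and 3 labelled WT, built from TRIzol RNA with a VAHTS kit, per the labels' protocols. The authors deposited FPKM (fragments scaled to transcript length and sequencing depth) in 1 table per library, and the submitters' processing notes name the build mm10. For the aligner, counting tool, strand setting and annotation the entry is: not given in the sources used here. Hence reads of overlapping genes cannot be told apart.

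Groups came from the sample titles. The 10732 genes averaging 1 FPKM or more were fitted together on log2(FPKM + 1), without rescaling, in limma 3.58.1 (R 4.3.3, moderated with a trend, Benjamini-Hochberg over all genes, threshold 0.05). Log2 differences understate the change of low genes. Whole reads were recovered from the steps of the FPKM values: all 15318 genes above 0 in every library gave whole reads within 0.002 reads, although a factor common to all 6 counts cannot be seen. Both steps were tested on simulated data. The 10 genes and all lists were chosen with earlier results of these data known. Some listed genes are not reported here and were left out of the lists described. All 10 genes are named, and of each related list the 4 genes with the smallest p and the 2 most abundant. Of marker lists not described elsewhere, neutrophil and monocyte markers summed to 51.04 to 70.5 FPKM in KO libraries and 26.1 to 47.4 FPKM in WT libraries, mast cell markers to 107 to 469 FPKM in KO and 10.5 to 559 FPKM in WT, fibroblast and mesothelial markers to 3.33 to 35.4 FPKM in KO and 0.982 to 21.8 FPKM in WT, and astrocyte and oligodendrocyte markers to 15.8 to 17.4 FPKM in KO and 17.96 to 24.3 FPKM in WT. Promoter sequences came from RefSeq (GRCm38.p6). Python 3.11.15, pandas 2.3.3, scipy 1.17.1 and matplotlib 3.10.9 were used. The alternatives tried were other pseudocounts, filters and scalings, array weights, no trend, a replicate block, a macrophage covariate, voom on the recovered reads, and leaving out each library.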

Additional observations from a re-analysis of the deposited data

How the results depend on the processing

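The number of the 10 genes called higher in KO was 0 with all 6 libraries, 2 with array weights (Fos and Fosl2) and 0 to 2 when each library was left out, with 2 only without WT replicate 2; it was 0 under the other settings, and the number called lower was 0 under all of them. Fos kept a positive difference under all 19 alternatives (0.20 to 1.61, adjusted limma p from 0.0097 to 0.68), as did Fosl2 (0.64 to 1.08, adjusted p from 0.0095 to 0.44). With the macrophage covariate Junb turned to -0.13 and Egr3 to 0.10. Ier2 turned to 0.02 with array weights, to 0.03 under median-of-ratios scaling and lay between -0.12 and 0.10 when each library was left out, with -0.36 under the macrophage covariate. That covariate also took Jund to -0.35 and Jun to -0.38; Jund lay between -0.21 and -0.07 and Jun between -0.28 and -0.12 when each library was left out. The median of the heat shock list moved to -0.27 with the covariate and to -0.13 when mitochondrial and ribosomal protein genes were kept out of the rescaled totals, and that of the upstream kinases and factors to 0.16 with the covariate. The median of the other leucine zipper factors moved to 0.15 with no filter and lay between -0.02 and 0.16 when each library was left out. The totals rescaled without mitochondrial and ribosomal protein genes lowered the difference of each of the 9 tested genes, and median-of-ratios scaling raised each. Jun, for example, lay at -0.25 and -0.11 under these, against -0.17 in the fit reported. Medians of all tested genes under the alternatives are not given here, and the cause of the changes was not tested. Over all genes, the number called higher, 3 in the fit reported, was 544 with array weights, 6 with a pseudocount of 5, 6 with totals rescaled without mitochondrial and ribosomal protein genes, 5 by voom, 0 with the macrophage covariate, 0 with no filter, and 0 to 500 when each library was left out. The number called lower was 0 in the fit reported, 68 with array weights and 0 to 38 when each library was left out.

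KO and WT replicates share numbers. Deviations from the group means of same-numbered libraries correlated at -0.21, -0.38 and 0.27 over genes. Only KO replicate 3 and WT replicate 3 correlated best with each other among same-numbered libraries, and the highest correlation, 0.47, was between KO replicate 1 and WT replicate 2. These correlations cannot decide whether the numbers pair the libraries, since any other difference between libraries, such as in marker RNA, also enters them. With the replicate block the number called higher was 11, and none of the 10 genes was among them (adjusted p = 0.074 for Fos and 0.090 for Fosl2). With 3 libraries per group, differences such as that of Ier2, within its standard error, were not detectable.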
